A study of Mus musculus with 7 samples.

Results

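The nuclear-encoded subunits of the respiratory chain and of ATP synthase were described in newborn mouse liver, complex by complex. Members were the probe sets whose single gene symbol on the platform annotation is that of a subunit of complexes I to V, that is the Ndufa, Ndufb, Ndufc, Ndufs and Ndufv genes, Sdha to Sdhd, the Uqcr genes and Cyc1, the Cox4 to Cox8 genes and the Atp5 genes. These were 165 of 45037 probe sets and 82 of 18193 named genes. The rule used gene symbols and no measured value, but it was set with earlier results of these data known. A filter on low intensity, under which a probe set was tested only if its mean lay above the median of all, kept 146 of the 165 probe sets and 77 of the 82 genes. Complex I had 34 tested genes of 35, complex II 4 of 4, complex III 9 of 9, complex IV 13 of 17 and complex V 17 of 17. The 5 genes with no tested probe set were Ndufb4, Cox4i2, Cox6a2, Cox7b2 and Cox8b.

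The livers came from C57BL/6J males at day of life 1, from 4 glycerol kinase knockout pups and 3 wild type littermates of such pups. Glycerol kinase phosphorylates glycerol, and the labels name no tissue to which its loss was restricted. RNA was extracted from each liver separately and hybridised to 1 Affymetrix Mouse Genome 430 2.0 array, so the arrays stand for separate animals. The targeted gene is not analysed here, so the labels were not checked by it.

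Complexes I and II pass electrons to ubiquinone, complex III passes them on to cytochrome c, and complex IV to oxygen. Complexes I, III and IV pump protons out of the mitochondrial matrix, and complex V, the ATP synthase, makes ATP from their return. Apart from complex II, each complex also holds subunits encoded by mitochondrial DNA, and the newborn liver relies on respiration as it turns from placental glucose to fat and milk. Several subunits exist as tissue isoforms, with heart, muscle, lung or testis forms beside the form found in liver.

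Values are intensities on a linear scale, with the same trimmed mean of 500.003 on every array. Array medians ran from 92.7 to 108.3, and arrays correlated at 0.930 to 0.985 over tested probe sets. Knockout 3 stood apart in its 3' to 5' control ratios. For transferrin receptor it gave 11.1 and the other 6 arrays 7.22 to 8.24, and for pyruvate carboxylase 7.28 and the others 3.46 to 6.39. Hepatocyte markers had no call among 10 tested genes (limma, 0 also at an unadjusted p under 0.05), and their summed intensity was 262169 to 331895 in knockout and 281775 to 312961 in wild type livers. Erythroid markers, of which newborn liver holds many, were lower in all 8 tested genes, and Slc4a1, Rhag and Trim10 fell. Their summed intensity over 9 genes was 56890.5 to 62026 in knockout livers and 70655 to 80290.2 in wild type livers, without overlap. Pancreas markers stood apart in knockout 3, with a summed intensity of 6044 over 5 genes against 940.3 to 1467 in the other knockout livers and 1499 to 2030.5 in wild type livers. Ctrb1, a digestive protease of the pancreas, read 3163 in knockout 3 and 5.1 to 12.3 in the other 6 arrays, and Cpa1, another, 498 and 5.8 to 17.8. The other 8 marker lists (Kupffer cell, lymphocyte, neutrophil, endothelial, stellate cell, cholangiocyte, muscle and brown fat) had overlapping sums, and they and the pancreas list had 0 calls. At an unadjusted p under 0.05 there were 3 endothelial genes and 1 each of lymphocyte, neutrophil, muscle and brown fat. Fewer cells of a type and less RNA per cell cannot be told apart in whole liver, and the part of the erythroid shift and of the pancreas RNA in the results below was not tested.

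Most respiratory chain transcripts were somewhat higher in knockout livers, by sizes of which few passed the test. Taking each gene's brightest probe set, 68 of 77 genes were higher in knockout, and the median log2 fold change was 0.23, with quartiles of 0.11 and 0.35. Fold changes here are knockout minus wild type on the log2(intensity + 16) scale. Over all 11159 tested named genes the same count gave 49.9% higher and a median of -0.00. Counted by probe set, 121 of 146 members were higher, with a median of 0.21, whereas 45.8% of all 22518 tested probe sets were higher, with a median of -0.03. Among the 2252 brightest tested probe sets, 46.4% were higher, with a median of -0.02, and the 116 members among these had 103 higher, with a median of 0.22. The members share arrays and are not replicates, so these counts are given as a description, without a test.

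In the test of single probe sets, 5 members rose and 1 fell at an adjusted p under 0.05 (limma, Benjamini-Hochberg over all 22518). That is 4.11% of the members against 4.24% of all tested probe sets, which was near the background and no excess of calls by probe set. Of the 2252 brightest probe sets 8.30% were called, and of the 116 members among these 4.31%. By each gene's brightest probe set, 7.79% of member genes were called, against 4.76% of all tested named genes. Over all probe sets 2.35% rose and 1.89% fell. All knockout arrays lay above all wild type arrays for 42 members (28.8%), against 9.4% of all tested probe sets and 14.4% of the 2252 brightest. The reverse order held for 4 members (2.74%), against 11.8% of all tested probe sets. An unadjusted p under 0.05 was reached by 41 members that were higher and 4 that were lower, or 30.8%. Of all tested probe sets 21.7% did so (2246 higher, 2650 lower), and of the 2252 brightest 33.0%, so that the members' share of small p was near that of bright probe sets. The counts at an unadjusted p given below are to be read against these shares.

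The knockout livers were not alike. Relative to the mean of the wild type arrays, the median over the 77 genes was 0.21, 0.06, 0.49 and 0.21 in knockout 1 to 4, and -0.00, 0.04 and -0.03 in wild type 1 to 3. Knockout 2 lay close to wild type 2, and knockout 3 was highest. The median over all tested probe sets was -0.10 in knockout 3 and between -0.04 and 0.02 in the other arrays. Knockout 3 held the highest of the 7 values for 55 of the 77 genes (71.4%), against 15.6% of all tested probe sets. Knockout 2 held the lowest of the 4 knockout values for 52 of the 77. Without knockout 3, 60 of 76 genes were higher, the median was 0.17, and 3 members rose and 0 fell (limma, adjusted). The medians of complexes I to V were then 0.20, 0.25, 0.21, 0.03 and 0.07. The part of this array's control ratios and of its pancreas markers in its values was not tested.

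**Figure D1:**
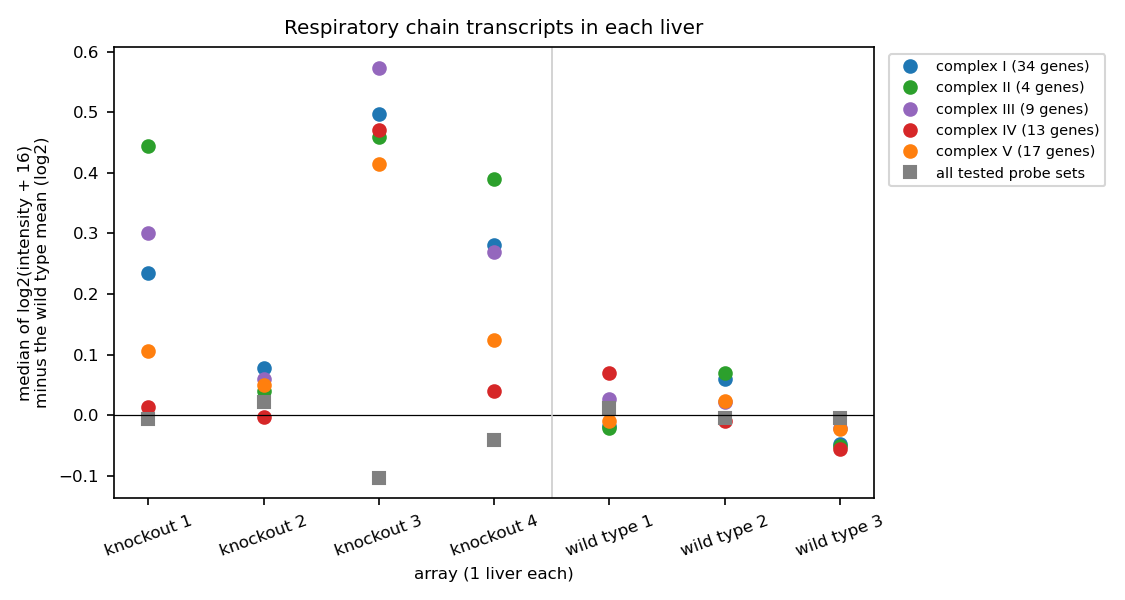
Median, over the genes of each complex, of log2(intensity + 16) minus the wild type mean, by array, with knockout livers left and wild type livers right. Colours stand for complexes I to V and grey squares for all tested probe sets. In knockout 3 the complexes lie between 0.41 and 0.57, in knockout 2 between -0.00 and 0.08, and in wild type livers between -0.06 and 0.07.

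Complex I, which oxidises NADH, had 31 of 34 genes higher, with a median of 0.27 and a range of -1.95 to 0.56. Genes were put in complex I by symbol, which takes in Ndufa4 and its paralogue Ndufa4l2. The lower end of the range is Ndufa4l2, and the next lowest gene was Ndufb1 at -0.05. Ndufs7 and Ndufa8 rose, Ndufa4l2 fell, and 15 genes had an unadjusted p under 0.05, of which 14 were higher. All 7 tested genes of the N module, the arm that binds NADH, were higher, by 0.23 to 0.40, with a median of 0.35 and 0 calls (4 at an unadjusted p under 0.05). The Q module, where ubiquinone is reduced, had 4 of 4 genes higher, with a median of 0.31, and Ndufs7 among them rose. The other genes, mostly of the membrane arm and with Ndufa4 and Ndufa4l2 among them, had 20 of 23 higher, with a median of 0.20.

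Ndufs7 holds the last iron-sulfur cluster before ubiquinone. Its brightest probe set, 1451312_at, read 7235, 5671, 6251 and 6911 in knockout livers and 3862, 5077 and 4341 in wild type livers. Each knockout value was above each wild type value, with a gap that was small beside the spread. The mean was 6517 ± 697 in knockout and 4427 ± 612 in wild type (SD, n = 4 and 3), a log2 fold change of 0.56 ± 0.13 (SE) or 1.47-fold, with an adjusted p of 0.0476. Leaving out any 1 of the 7 arrays ended the call, with adjusted p from 0.0529 without knockout 2 to 0.183 without wild type 3. The other probe set of the gene, 1424313_a_at, was higher by 0.49 ± 0.13 (adjusted p = 0.0585), and its groups did not overlap either.

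Ndufa8 is an accessory subunit on the intermembrane side, held together by disulfide bonds. It read 8075, 7010.3, 7084 and 7599 in knockout livers and 5056, 5574 and 4612 in wild type livers. The groups were well apart, and knockout 3 was not the highest array. The mean was 7442 ± 496 in knockout and 5081 ± 482 in wild type (SD, n = 4 and 3), a log2 fold change of 0.55 ± 0.11 (SE) or 1.47-fold, with an adjusted p of 0.0293. The call was lost without knockout 4 (0.0743), wild type 1 (0.0843), wild type 2 (0.0652) or wild type 3 (0.156).

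Promoter windows of both genes are shown because they carry different motifs of known regulators of respiratory genes. Each runs from 250 bases before to 50 after the annotated start, 5′ to 3′ on the gene's strand, from RefSeq on build GRCm38.p6. Capitals mark exact matches to CGCNTGCGC in the window of Ndufa8 (chr2:36049289-36049588, minus strand), where 2 matches lie close before the start. These letters are the reverse complement of GCGCANGCG, a motif of the factor NRF1. In the window of Ndufs7 (chr10:80249199-80249498, plus strand) capitals mark 1 match to AAGATGGCG, a motif of the factor YY1, shortly after the start.
Ndufa8: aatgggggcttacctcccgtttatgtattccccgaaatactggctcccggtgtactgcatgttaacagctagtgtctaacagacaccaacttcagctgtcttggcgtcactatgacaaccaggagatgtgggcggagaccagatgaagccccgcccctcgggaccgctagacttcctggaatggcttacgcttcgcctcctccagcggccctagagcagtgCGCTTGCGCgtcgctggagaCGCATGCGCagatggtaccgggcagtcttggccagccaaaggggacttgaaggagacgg
Ndufs7: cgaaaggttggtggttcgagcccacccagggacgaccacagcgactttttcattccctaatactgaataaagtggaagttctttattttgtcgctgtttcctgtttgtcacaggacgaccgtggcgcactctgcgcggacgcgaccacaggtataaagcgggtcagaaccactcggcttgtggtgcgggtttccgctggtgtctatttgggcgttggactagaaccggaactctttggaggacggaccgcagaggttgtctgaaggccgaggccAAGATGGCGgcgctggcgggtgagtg

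Among the other subunits of the NADH-binding arm, Ndufv1, which binds the flavin, averaged 6305 ± 1012 in knockout and 4782 ± 32.1 in wild type livers (SD, n = 4 and 3), and its log2 fold change was 0.38 ± 0.14 (adjusted p = 0.147). Ndufv2, its iron-sulfur partner, was at 0.35 ± 0.11 (0.110), and Ndufs1, which carries further iron-sulfur clusters, at 0.36 ± 0.14 (0.166). In each of these 3 genes the brightest probe set read higher in all knockout than in all wild type livers, and none passed. Ndufs4, an accessory subunit whose loss causes Leigh-like disease in mice, averaged 3119 ± 248 in knockout and 2350 ± 69.7 in wild type livers, with a fold change of 0.40 ± 0.12 (0.0880) and no overlap. Ndufs3 and Ndufs8, subunits of the arm that reaches ubiquinone, were at 0.28 ± 0.13 (0.245) and 0.19 ± 0.12 (0.389) with overlapping groups. All 6 tested probe sets of Ndufs8 were higher, by 0.07 to 0.44.

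Ndufa4l2 went the other way. It is a paralogue of Ndufa4 and is known as a target of hypoxia-inducible factor that lowers respiration. It read 217, 1174, 524 and 299 in knockout livers and 2133, 1823 and 1463 in wild type livers. Knockout 2 was closest to the wild type group, and the groups did not overlap. The mean was 553 ± 434 in knockout and 1806 ± 336 in wild type (SD, n = 4 and 3), so that it fell by 1.95 ± 0.46 on the log2 scale, or 3.87-fold, with an adjusted p of 0.0442. The call held without knockout 2, and was lost without knockout 1 (0.0547), knockout 3 (0.0582), knockout 4 (0.102), wild type 1 (0.134), wild type 2 (0.126) or wild type 3 (0.128). Ndufa4 itself, first assigned to complex I and later to complex IV, averaged 14348 ± 2220 in knockout and 11348 ± 240 in wild type livers, at 0.33 ± 0.12 (adjusted p = 0.155), with every knockout above every wild type value.

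Complex II, succinate dehydrogenase, also works in the citric acid cycle and is wholly nuclear-encoded. All 4 genes were higher by their brightest probe set, with a median of 0.30 and a range of 0.26 to 0.54, and 0 passed (limma, 3 at an unadjusted p under 0.05). Sdha, the flavoprotein that oxidises succinate, read 7676, 5928, 10425 and 8282 in knockout livers and 5542, 5794 and 5014 in wild type livers. Knockout 2 was just above wild type 2, and knockout 3 was the highest array by far. The fold change was 0.54 ± 0.17 (adjusted p = 0.105, and 0.0477 without knockout 2). Sdhb, the iron-sulfur subunit, was at 0.29 ± 0.13 (0.217), and the membrane anchors Sdhc and Sdhd at 0.26 ± 0.12 (0.246) and 0.32 ± 0.13 (0.201), all with overlapping groups. A second probe set of Sdhc was at 0.48 ± 0.14 (0.0933), without overlap.

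Complex III had all 9 genes and all 15 tested probe sets higher, with a median over genes of 0.34 and a range of 0.12 to 0.67. None passed (limma, 5 genes at an unadjusted p under 0.05), and 7 of the 15 probe sets were higher in all knockout than in all wild type livers. The 3 probe sets of Uqcr10, a small subunit next to cytochrome c1, were at 0.67 ± 0.21, 0.76 ± 0.25 and 0.69 ± 0.22 (adjusted p = 0.105, 0.120 and 0.111). The brightest read 9353, 7159, 15371 and 9215 in knockout livers and 6414, 6091 and 6108 in wild type livers. Knockout 3 was far above the rest, and the other knockout values still lay above the wild type range. Cyc1, cytochrome c1, read 13079, 10750.0, 14616 and 11834 in knockout livers and 9482, 9865 and 10107 in wild type livers, also without overlap, at 0.35 ± 0.12 (0.123). Uqcrfs1, the Rieske iron-sulfur protein, was at 0.29 ± 0.12 (0.195) without overlap, and Uqcrc1, a core protein, at 0.35 ± 0.14 (0.186) with overlap. Uqcrq, a small subunit near the ubiquinone site, was at 0.34 by its brightest probe set, with a mean intensity of 13467. Its dim probe set, with a mean of 145, was at 0.82 ± 0.30 (0.144).

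Complex IV is cytochrome c oxidase. By the brightest probe set 11 of 13 genes were higher, with a median of 0.14, and without knockout 3 the median was 0.03. Cox5a, a nuclear subunit on the matrix side, rose by its brightest probe set. That probe set, 1448153_at, read 18505, 17270.5, 21821 and 17789 in knockout livers and 14018, 13196 and 12706 in wild type livers. The groups were clearly apart. The mean was 18846 ± 2047 in knockout and 13306 ± 663 in wild type (SD, n = 4 and 3), a log2 fold change of 0.50 ± 0.10 (SE) or 1.41-fold, with an adjusted p of 0.0315. The call was lost without knockout 4 (0.0620), wild type 1 (0.0702), wild type 2 (0.111) or wild type 3 (0.157). Its other probe sets did not repeat this, as given below, and 1415933_a_at among them was the brighter in wild type livers. The promoter window of Cox5a (chr9:57520982-57521281, plus strand, GRCm38.p6, RefSeq) is shown because it holds none of the motifs searched.
Cox5a: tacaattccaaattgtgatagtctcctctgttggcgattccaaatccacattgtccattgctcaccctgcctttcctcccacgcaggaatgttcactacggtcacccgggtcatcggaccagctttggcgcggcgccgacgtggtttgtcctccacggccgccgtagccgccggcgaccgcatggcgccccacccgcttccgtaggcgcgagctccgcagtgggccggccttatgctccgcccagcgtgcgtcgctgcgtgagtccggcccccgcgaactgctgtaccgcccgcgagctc

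The other subunits that most tissues share did not pass. Cox4i1, the form of subunit 4 in most tissues, was at 0.19 ± 0.11 (adjusted p = 0.362), Cox5b at 0.14 ± 0.13, Cox6b1 at 0.14 ± 0.11, and Cox6a1 and Cox7a2 at 0.03 ± 0.11 and 0.03 ± 0.17. Cox6c was at 0.09 ± 0.12. Cox7c, which had 1 dim tested probe set, averaged 304 ± 109 in knockout and 217 ± 107 in wild type livers, at 0.46 ± 0.36 (0.497) with overlap. Cox7a2l, known for joining complexes III and IV into supercomplexes, was at 0.05 ± 0.13. Cox8a was at 0.22 ± 0.11 (0.278), higher in all knockout than in all wild type livers.

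Of the 7 isoforms of other tissues, 4 were below the filter. Cox6b2, the testis form of Cox6b1, read 1175, 1749, 2581 and 1645 in knockout livers and 2838, 2506 and 2260 in wild type livers, overlapping through knockout 3, at -0.55 ± 0.23 (adjusted p = 0.198). Cox8c, another testis form, averaged 250 ± 38.6 in knockout and 337 ± 30.9 in wild type livers, lower in all knockout livers, at -0.42 ± 0.18 (0.202). Cox7a1, the heart and muscle form, read 54.6, 171.6, 278.7 and 89.0 in knockout livers and 96.1, 87.1 and 76.2 in wild type livers, at 0.48 ± 0.42 (0.550). Without knockout 3, its highest array, Cox7a1 fell below the filter, so its place among the tested and higher genes rests on that array. The untested forms were Cox4i2 of lung, at 23.1 to 78.2 in knockout and 34.6 to 51.9 in wild type livers, Cox6a2 and Cox8b of heart and muscle, and Cox7b2 of testis. Cox8b read 14.4 to 56.7 in knockout and 4.8 to 30.5 in wild type livers. Markers of heart and skeletal muscle were near background too, with 6 of 11 under a mean of 50 and 2 tested.

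Complex V had 13 of 17 genes higher, with a median of 0.14, and 2 of its genes rose. Atp5md, a small membrane subunit found at the dimer interface of the enzyme, read 10042, 6436, 10569.8 and 11307 in knockout livers and 5355, 5813 and 4635 in wild type livers. Knockout 2 lay just above the wild type range and the other knockout livers far above it. The mean was 9589 ± 2165 in knockout and 5268 ± 594 in wild type (SD, n = 4 and 3), a log2 fold change of 0.84 ± 0.19 (SE) or 1.79-fold, with an adjusted p of 0.0388. The call held without knockout 2. It was lost without knockout 1 (0.0599), knockout 3 (0.0612), knockout 4 (0.0915), wild type 1 (0.101), wild type 2 (0.0869) or wild type 3 (0.169).

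Atp5g1 is 1 of 3 genes for subunit c, the ring that turns as protons pass, and the 3 encode the same mature protein. It read 10469, 9318, 14022 and 10007 in knockout livers and 6434, 6721 and 6416 in wild type livers, with a wide gap between the groups. The mean was 10954 ± 2099 in knockout and 6524 ± 171 in wild type (SD, n = 4 and 3), a log2 fold change of 0.73 ± 0.14 (SE) or 1.66-fold, with an adjusted p of 0.0237. The call was lost without knockout 4 (0.0501), wild type 1 (0.0766), wild type 2 (0.0753) or wild type 3 (0.117). The sister genes Atp5g2 and Atp5g3 were at 0.14 ± 0.11 and 0.11 ± 0.10, with overlapping groups, and their difference from Atp5g1 was not tested.

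In the catalytic head, Atp5b, the subunit that makes ATP, averaged 19590.3 ± 1680 in knockout and 18996 ± 1167 in wild type livers, at 0.04 ± 0.10 (adjusted p = 0.842). Atp5a1, its partner, averaged 20571 ± 1641 in knockout and 16602 ± 1285 in wild type livers, without overlap, at 0.31 ± 0.10 (0.109). The shaft subunit Atp5c1 was at 0.15 ± 0.11 (0.450). In the peripheral stalk, which holds the head still, Atp5j averaged 10142 ± 1014 in knockout and 7521 ± 349 in wild type livers, at 0.43 ± 0.11 (0.0565), and Atp5o 11194 ± 1677 in knockout and 8327 ± 331 in wild type livers, at 0.42 ± 0.12 (0.0897). Both were without overlap, and neither passed the threshold. Knockout 3 was the highest of all 7 arrays for 14 of the 17 genes of the complex.

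**Figure D2:**
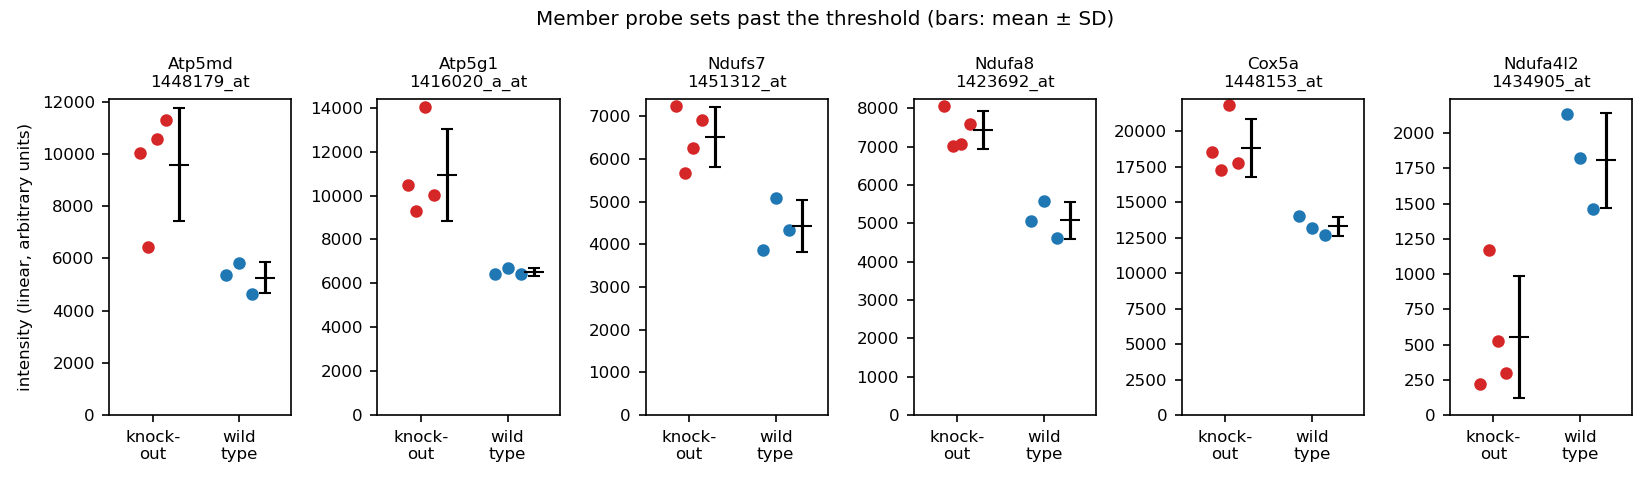
Intensity (linear, arbitrary units) of the 6 member probe sets that passed, 1 point per liver, with knockout left and wild type right and bars for mean ± SD. Knockout and wild type livers do not overlap in any panel, and Ndufa4l2 is the 1 that is lower in knockout.

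**Figure D3:**
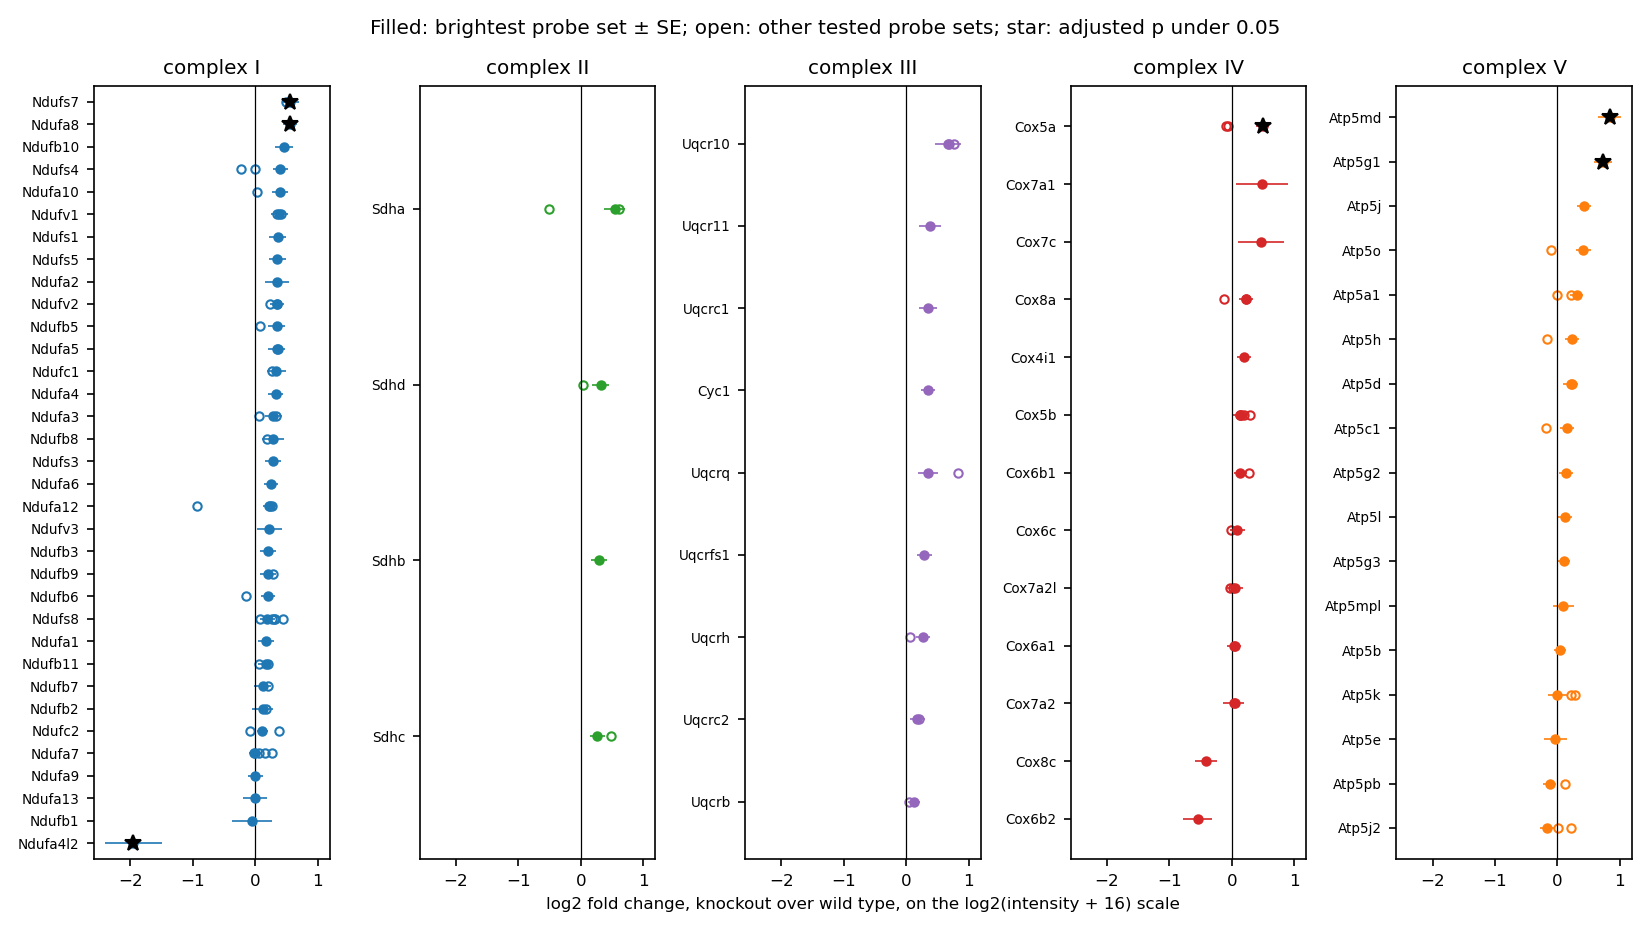
Log2 fold change, knockout over wild type, of every tested gene by complex, with filled points for the brightest probe set (± SE), open points for other probe sets and stars for an adjusted p under 0.05. By brightest probe set 31 of 34, 4 of 4, 9 of 9, 11 of 13 and 13 of 17 genes of complexes I to V lie above 0.

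Probe sets of a gene did not always give the same answer. Of the 77 genes, 43 had several tested probe sets. In 26 of them every probe set was higher, in 0 every one was lower, and in 17 the signs were mixed, namely in Ndufa7, Ndufa12, Ndufb6, Ndufc2, Ndufs4, Sdha, Cox5a, Cox6c, Cox7a2l, Cox8a, Atp5a1, Atp5c1, Atp5h, Atp5j2, Atp5k, Atp5o and Atp5pb. The median gap between a gene's highest and lowest log2 fold change was 0.22. The brightest probe set was compared with each other probe set of its gene, array by array, in 69 pairs. Signs were the same in 48, and 9 pairs reached the smallest p that the exact two-sided permutation test over 35 splits allows, 0.0286. After adjustment over the 69 pairs the smallest p was 0.219. With 7 arrays at least 40 pairs would have to reach 0.0286 for any to pass, so the adjusted values say nothing for or against a disagreement.

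The widest gap was in Ndufa12, an accessory subunit near the NADH-binding arm. Its probe set 1425919_at averaged 133 ± 52.8 in knockout and 256 ± 22.1 in wild type livers, at -0.93 ± 0.26 (adjusted p = 0.0764), while its other 3 probe sets, all far brighter, were at 0.22 to 0.27. Sdha had 2 bright probe sets at 0.54 ± 0.17 and 0.62 ± 0.19 and a dim one, 1433293_at, at -0.51 ± 0.25, with 97.4 ± 26.3 in knockout and 145 ± 34.4 in wild type livers. In Ndufs4 the bright probe set at 0.40 stood beside dim ones at -0.23 ± 0.15 and -0.01 ± 0.24. In these 3 genes the probe sets that went the other way were dim.

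Cox5a differed, since its disagreeing probe sets were bright. In wild type livers 1415933_a_at averaged 16605 and the probe set that rose 13306, so the latter was brightest only with the knockout arrays included. Probe set 1415933_a_at read 16758, 13085, 17095 and 16714 in knockout livers and 16385, 16724 and 16705 in wild type livers, at -0.07 ± 0.11. Probe set 1439267_x_at read 9847, 6566, 9229 and 9832 in knockout livers and 8748, 9635 and 9593 in wild type livers, at -0.09 ± 0.15. In both, knockout 2 was low and the other arrays lay close together, whereas in the probe set that rose the groups were apart. The per-array differences between the brightest probe set and these 2 were larger in knockout by 0.57 and 0.59 (exact permutation p = 0.0286 each, 0.219 adjusted). Atp5o and Atp5h showed such a split between bright probe sets as well, at 0.42 against -0.10 and at 0.23 against -0.17 (exact permutation p = 0.0286 each, 0.219 adjusted). For Atp5h too, the probe set at -0.17 was the brighter in wild type livers, at 13716 against 12319. Ndufc2 had probe sets at 0.11, 0.38 and -0.08, and Atp5j2 at -0.16, 0.01 and 0.21.

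Direction went with brightness. Of the 127 tested member probe sets with a mean of at least 1000, 111 were higher, with a median of 0.22, and of the 19 under it, 10 were higher, with a median of 0.03. Over all tested probe sets the shares higher were 47.6% of 6968 and 45.0% of 15550. The median of probe sets that may bind several transcripts of a family (ending _x_at or _s_at) was 0.23 and 0.21, and that of the plain kind was 0.21. RefSeq lists a pseudogene under the name of 9 of the genes, among them Atp5c1, Cox5b, Ndufa12 and Uqcrh, so that their signal may not come from 1 locus alone.

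**Figure D4:**
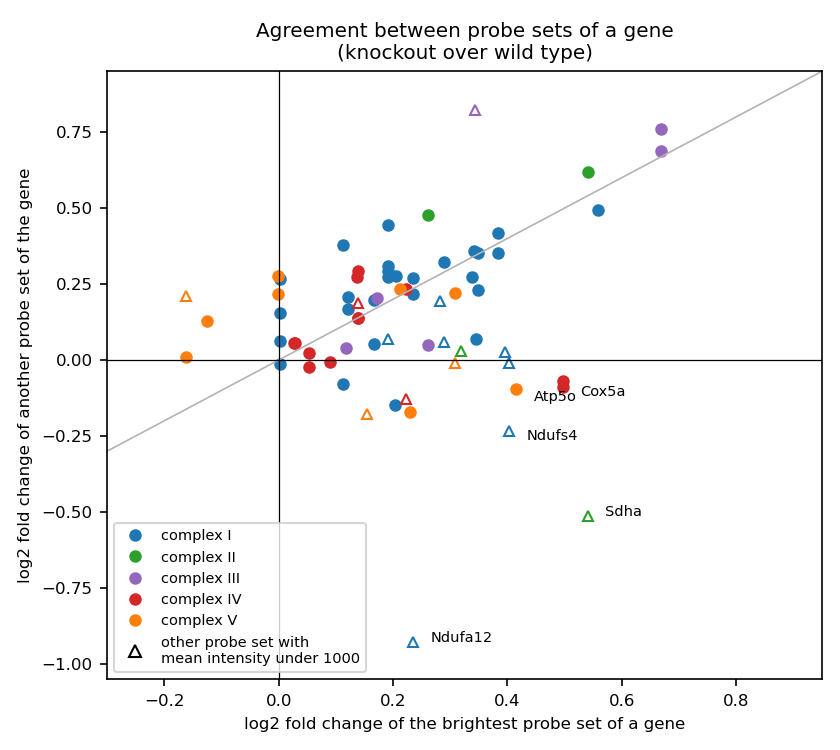
Log2 fold change of each other tested probe set of a gene (vertical) against that of its brightest probe set (horizontal), 69 pairs, coloured by complex, with triangles where the other probe set has a mean under 1000 and a grey line of equality. In 48 pairs the signs are the same, and Ndufa12, Sdha, Ndufs4, Cox5a and Atp5o lie far below the line.

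Genes that build the complexes were set beside the subunits. All 9 tested assembly factors of complexes II and III were higher, with a median of 0.41. Sdhaf4, which helps Sdha mature, averaged 1763 ± 133 in knockout and 1177 ± 110 in wild type livers (SD, n = 4 and 3) and rose by 0.58 ± 0.13 (adjusted p = 0.0442). Its call was lost without any 1 of the 7 arrays (0.0507 without knockout 1 to 0.189 without wild type 3). Sdhaf3, of the same complex, was at 0.56 ± 0.16 (0.0878). Of 17 assembly factors of complex I, 13 were higher, with a median of 0.29 and 0 calls (limma, 7 at an unadjusted p under 0.05), led by Aifm1 at 0.74 ± 0.19 (0.0563, and 0.0219 without knockout 2) and Foxred1 at 0.56 ± 0.19 (0.124, and 0.0488 without knockout 2). Of 19 for complex IV, 15 were higher, with a median of 0.16 and 0 calls (3 at an unadjusted p under 0.05). Coa3 was at 0.54 ± 0.23 (0.196) and Cox15, of heme synthesis, at 0.35 ± 0.15 (0.205). Of 13 markers of mitochondrial content outside the chain, 11 were higher, with a median of 0.13 and 0 calls. At an unadjusted p under 0.05, Immt, which shapes the cristae, was higher at 0.42 ± 0.15 (adjusted p = 0.136) and Tomm20, an import receptor, lower at -0.33 ± 0.14 (0.204).

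Of the 17 tested subunit genes of the ATP synthase, 13 were higher, 2 of them called, and 4 were lower. Atpif1, the inhibitor that stops this enzyme from running backwards, was lower. It read 5580.5, 6898, 6175 and 6160.5 in knockout livers and 8207, 9653 and 9504 in wild type livers. The gap between the groups was wide and knockout 3 was in the middle of its group. It fell by 0.56 ± 0.11 on the log2 scale (adjusted p = 0.0302), and the call was lost without knockout 4 (0.0719), wild type 2 (0.124) or wild type 3 (0.153). Among the 5 tested genes of ATP synthase assembly and regulation, 3 were higher and the median was 0.06. Atpaf2, an assembly factor of the head, was at 0.46 ± 0.16 (0.123).

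Among these other genes the smallest adjusted p was that of Etfdh. This enzyme, which passes electrons from fatty acid and amino acid oxidation to ubiquinone, read 9751, 7569, 6810.4 and 9806 in knockout livers and 3344, 4204 and 4083 in wild type livers. Every knockout value was far above the wild type range, and knockout 3 was the lowest of the 4. It rose by 1.12 ± 0.16 (adjusted p = 0.00681) and passed under each of the 16 alternatives run (adjusted p from 0.00482 to 0.0431). Etfb, a subunit of the flavoprotein that feeds Etfdh, was at 0.50 ± 0.14 (0.0790). Gpd2, the mitochondrial glycerol 3-phosphate dehydrogenase, whose substrate is the product of glycerol kinase, read 2667, 1968, 731 and 2671 in knockout livers and 945, 738 and 669 in wild type livers. Knockout 3 lay within the wild type range and the other knockout livers far above it, and the gene did not pass, at 1.19 ± 0.39 (0.115). The 8 tested enzymes that reduce ubiquinone outside complexes I and II had 5 higher, with a median of 0.38.

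Of 13 electron carriers and genes of ubiquinone synthesis, 10 were higher, with a median of 0.30. Coq9, needed for ubiquinone synthesis, read 2633, 2687, 3443 and 2624 in knockout livers and 1730, 2029 and 1912 in wild type livers, with knockout 3 above an otherwise tight group. It rose by 0.58 ± 0.14 (adjusted p = 0.0497), and the call was lost without any 1 of the 7 arrays (0.0543 without knockout 1 to 0.178 without wild type 3). Pdss2, which makes the side chain of ubiquinone, was at 0.86 ± 0.25 (0.0830).

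The nuclear regulators did not lean upward. Of 21 tested genes 8 were higher and 13 lower, with a median of -0.06. Polg2, the accessory subunit of the mitochondrial DNA polymerase, averaged 438 ± 50.1 in knockout and 257 ± 23.0 in wild type livers and rose by 0.73 ± 0.16 (adjusted p = 0.0382). That call held without knockout 1 and lost without each of the other 6 arrays (0.0529 without knockout 2 to 0.174 without wild type 3). Ppargc1a, a coactivator of respiratory genes, was at -0.57 ± 0.25 (0.215), and Esrrg, a nuclear receptor of the same programme, at -1.74 ± 0.50 (0.0783, and 0.0108 without knockout 3). The 1 mitochondrially encoded subunit with a named probe set, ND5, read 22938 to 26792 in knockout and 21111 to 24289 in wild type livers, at 0.15 ± 0.09 (0.357).

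**Figure D5:**
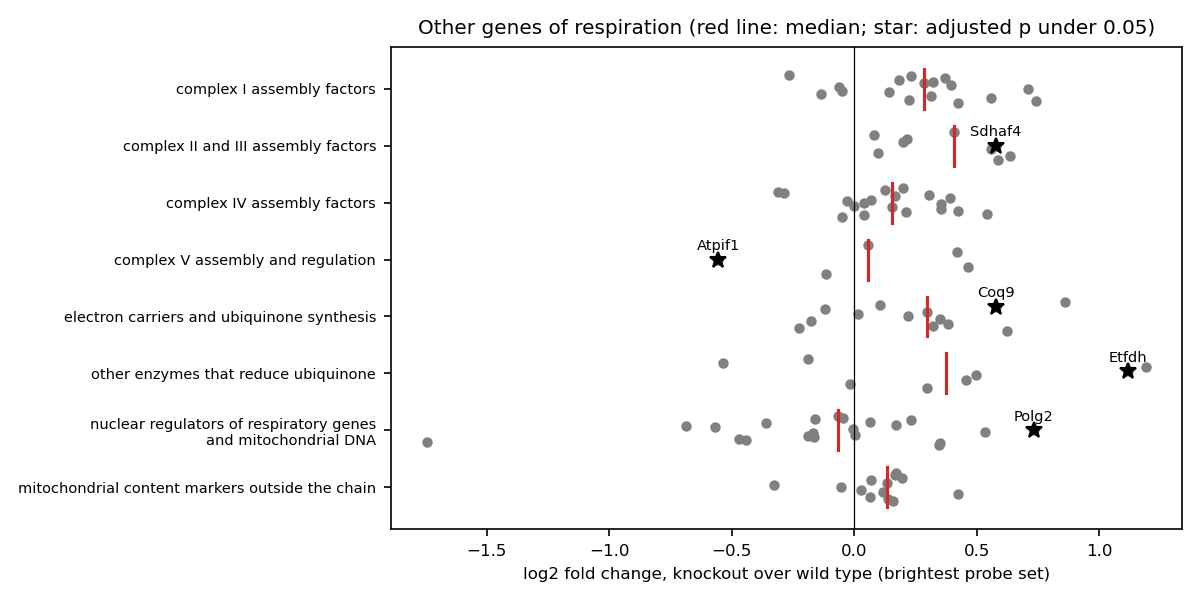
Log2 fold change, knockout over wild type, of the brightest probe set of other genes of respiration, by list, with a red line at each list's median and stars for an adjusted p under 0.05. Medians run from -0.06 for nuclear regulators to 0.41 for assembly factors of complexes II and III, and Atpif1 is the starred gene below 0.

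Promoter windows were found for 66 member genes in RefSeq's table, and motifs were searched on both strands, a gene counting once however many matches overlapped. The NRF1 motif GCGCANGCG stood in 18 of the 66 (27.3%), against 6.25% of all 32851 windows. Members were counted by gene, over 71 windows, but the background by window, and it was not matched for base content or expression. By complex that was 6 of 31, 2 of 3, 2 of 5, 1 of 12 and 7 of 15 genes for I to V. The YY1 motif AAGATGGCG stood in 6 (9.09%, against 1.40%), the GABPA motif CCGGAAGT in 5 (7.58%, against 3.89%), and the ESRR motif TCAAGGTCA in 2 (3.03%, against 0.423%). At least 1 of the first 3 was in 27 of the 66, against 10.6% of all windows. Of the genes that rose, the windows of Atp5g1, Atp5md and Cox5a held none of the 4. Ndufa4l2, which fell, had no window in the table. These are letter matches and not sites of binding.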

How the data were processed

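Messenger RNA of 4 knockout and 3 wild type livers was measured with 1 array each. Each deposited value is the linear intensity of a probe set on an array. Per the submitters' processing notes the software was GCOS (version and probe summary: not given in the sources used here). Without its lowest and highest 2%, the deposited intensity averaged 500.003 on every array, which is the mark of scaling to 1 target and hides a change of total messenger RNA. The number of arrays limits the precision.

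Intensities were transformed to log2(value + 16). Of 45101 probe sets 64 were controls and not used. Those whose mean exceeded the median of the rest were kept (22518), and knockout was compared with wild type over all of them with limma 3.58.1 in R 4.3.3 (lmFit, eBayes with a trend, no covariates). A call is an adjusted p under 0.05 (Benjamini-Hochberg). The offset understates fold changes of dim probe sets. Nothing on litters or array batches was used here.

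Genes were named from the platform annotation (1 symbol for 34958 probe sets, several for 932, none for 9211). All 165 members were found by gene ID in RefSeq with the same symbol, and 9 probe sets with several symbols, 1 of them a matching one, were not used. Differences between probe sets of a gene were compared by exact permutation of the arrays with scipy 1.17.1, and plots were drawn with matplotlib 3.10.9.

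The text names every member that passed, the 4 genes of smallest p in each complex, core subunits, tissue isoforms, genes with probe sets of mixed sign, and in each list of other genes those that passed or the 2 of smallest p. Any other gene was named with its values in view. The members, the lists of other genes and cell type markers, the roles and the motifs were chosen with earlier results of these data known. Steps were tested on simulated data. Deviations of same-numbered arrays from their group means correlated at -0.06 to 0.09, and with so few arrays this cannot exclude a pairing by replicate number. Alternatives covered the offset, scaling, filter, variance model, a replicate block, each array left out, shared probe sets and the mean of a gene's probe sets.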

Additional observations from a re-analysis of the deposited data

Results flagged for a closer look

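In 9 of 92 groups of 4 knockout values, 1 liver lay apart from the other 3 by Dixon's test at 95%. For a single group chance does so in about 1 of 20. The 92 groups share the same 4 livers and are not independent, so their count cannot be read against that rate. Knockout 3 was that liver in 6 of the 9. It read 16736 for Atp5j2 (1435395_s_at), against 12529 to 13104 in the other knockout livers. For Sdha (1426689_s_at) it read 7777, against 4430 to 4722, and for Coq9 it read 3443, against 2624 to 2687. The median shift of complex IV was 0.47 in knockout 3, against 0.01, -0.00 and 0.04 in knockout 1, 2 and 4. Its summed pancreas markers were 6044, against 940.3 to 1467 in the other knockout livers, and its summed lymphocyte markers 2678, against 3995 to 4151. Knockout 2 was apart and low in the other 3. It read 13085 for Cox5a (1415933_a_at), against 16714 to 17095, and 6566 for Cox5a (1439267_x_at), against 9229 to 9847. The median shift of complex II was 0.040 in knockout 2, against 0.44, 0.46 and 0.39 in knockout 1, 3 and 4. The wild type groups, with 3 livers, were not put to this test, so livers that lay apart were sought among the knockouts only.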

How the results depend on the processing

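The lean of the members kept its direction under every alternative run, and the calls did not. Higher genes numbered 60 to 71 with an array left out (68 of 77 in all), 71 of 82 without a filter, 66 of 73 with a filter at the 75th percentile and 72 of 77 with equal array medians, and the median was 0.17 to 0.29 with an array left out. Equal medians moved the median of all tested probe sets to 0.03 (53.0% higher), against -0.03 (45.8% higher) as deposited. By complex, the medians with an array left out were 0.20 to 0.32, 0.25 to 0.40, 0.21 to 0.42, 0.03 to 0.15 and 0.07 to 0.20 for I to V. Of 5 called higher and 1 lower, equal medians gave 3 and 1, quantile normalization 9 and 1, the 75th percentile filter 8 and 1, and leaving out an array 0 to 6 and 0 to 1. No filter, eBayes without a trend and the replicate block each gave 0 and 0. Of 3 knockout arrays 1 correlated best with its own number, and so few arrays can neither show nor exclude a pairing. Whether same-numbered arrays share a litter or batch was not tested. Over their alternatives, adjusted p ran from 0.0109 to 0.117 for Atp5g1, 0.00852 to 0.169 for Atp5md, 0.0104 to 0.157 for Cox5a, 0.0231 to 0.156 for Ndufa8, 0.0394 to 0.183 for Ndufs7 and 0.00859 to 0.134 for Ndufa4l2. Of 1170 values of the 75 named probe sets, 0 called values turned sign, 89 calls were lost and 14 values passed anew. Quantile normalization brought Atp5a1, Atp5j, Atp5o, Ndufc2 and Etfb past the threshold. The causes were not tested.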
